A study of Mus musculus with 10 samples.

Results

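The genes described here are 10 mouse genes by which tissue calls neutrophils and related white blood cells: the CXC chemokines Cxcl1, Cxcl2, Cxcl3 and Cxcl5, the CC chemokines Ccl20, Ccl3 and Ccl4, the growth factors Csf2 and Csf3, and the receptor Cxcr2. They were chosen by name, with earlier results of these data known, and all 10 were found among the 55487 genes of the deposited tables. Skin was profiled by RNA sequencing in 5 mice of the genotype written as Hamp1-KI ker (KI) and 5 wild type mice (WT), 1 library per mouse. The Hamp gene codes for hepcidin, a hormone that blocks ferroportin, the iron exporter of cells, and the series title names hepcidin in the skin. The labels give neither age, sex, strain nor body site, and they name no promoter behind "ker". KI 1 and KI 2 carry the title prefix EAS37 and KI 3 to KI 5 the prefix EAS42, while WT 1 to WT 3 carry EAS37 and WT 4 and WT 5 carry EAS42; the labels do not say what the prefixes mean.

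Chemokines are small secreted proteins that guide white blood cells along a gradient. Cxcl1, Cxcl2, Cxcl3 and Cxcl5 belong to the branch that carries the glutamate-leucine-arginine (ELR) motif and acts on Cxcr2, the main chemokine receptor of neutrophils. Ccl20 attracts cells that bear Ccr6, such as interleukin 17 producing T cells and some dendritic cells, while Ccl3 and Ccl4 attract monocytes, macrophages and T cells, Ccl3 in part through Ccr1. Csf3 (G-CSF) drives the making and release of neutrophils and Csf2 (GM-CSF) acts on granulocytes, macrophages and dendritic cells. In skin, keratinocytes make many of these signals when stimulated with interleukin 17, interleukin 1, interleukin 36 or tumour necrosis factor, largely through NF-kappa-B.

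Libraries held between 18.96 and 26.43 M expected counts. Hamp, the check of the labels, had 90.0, 169, 104, 95.3 and 85.6 CPM (counts per 1 M) in KI 1 to KI 5, against 1.90, 3.33, 2.73, 1.86 and 2.48 CPM in WT 1 to WT 5. No KI library came near the WT range of Hamp (log2 fold change 5.47 ± 0.26 SE, edgeR adjusted p = 3.78e-06). The related gene Hamp2 went the other way, at 3.18 ± 5.26 CPM in KI and 46.8 ± 22.3 CPM in WT (SD, n = 5 each; edgeR adjusted p = 0.0230). Hamp and Hamp2 together summed to between 91.7 and 169 CPM in KI and between 27.8 and 84.9 CPM in WT libraries. How reads shared between the 2 genes were assigned was not tested. The 11 keratinocyte markers summed to between 17843 and 37604 CPM in KI and between 15313 and 17366 CPM in WT libraries, so the tissue label was borne out in both. Of 17321 tested genes, 5351 differed between the genotypes (30.9%; edgeR adjusted p under 0.05), 15.6% higher and 15.3% lower in KI. Of the markers of other skin cell types, 7 of 7 endothelial, 4 of 7 adipocyte and 3 of 7 fibroblast markers passed as lower and none as higher, and 1, 1 and 0 passed as lower with the skeletal muscle level as a covariate. That covariate fit called 295 of 17321 genes higher and 143 lower, so calls were lost in it across all genes. Of 20 skeletal muscle markers 3 passed as lower, near the share of all genes, and that count was unstable, between 0 and 19 with 1 library left out (19 without KI 3). It was 16 with DESeq2, 13 with limma-voom and 15 with the prefix as a block. The median log2 change of the muscle markers was -1.31, against -0.01 over all genes tested, so the muscle level itself was lower in most KI libraries. In bulk skin, more cells of a type and more RNA per cell cannot be told apart.

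Most of the 10 genes were more abundant in KI skin, from low levels. All 10 had more counts in KI than in WT libraries, and 4 of them (Cxcl3, Cxcl5, Csf2 and Csf3) had no count in any WT library. In 6 genes (Cxcl1, Cxcl2, Cxcl3, Cxcl5, Ccl20 and Cxcr2) every KI library stood above every WT library, a pattern seen in 6.39% of the 31097 genes with a count. Only Cxcl1, Ccl20 and Cxcr2 had enough counts for the main test. These 3 passed the filter on low counts through their KI libraries, while WT 2 had 0 counts of each. Their being tested is thus not separate from their being higher in KI. In a fit of all 31097 genes, with no filter on low counts, the same 6 genes passed as higher in KI (edgeR adjusted p under 0.05), against 7.44% of those genes, and Ccl3, Ccl4, Csf2 and Csf3 did not pass. That number was 3 once skeletal muscle content was a covariate (Cxcl5, Ccl20 and Cxcr2) and 3 without KI 1 (Cxcl2, Ccl20 and Cxcr2). The plot of CPM by library shows all 10 genes.

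**Figure D1:**
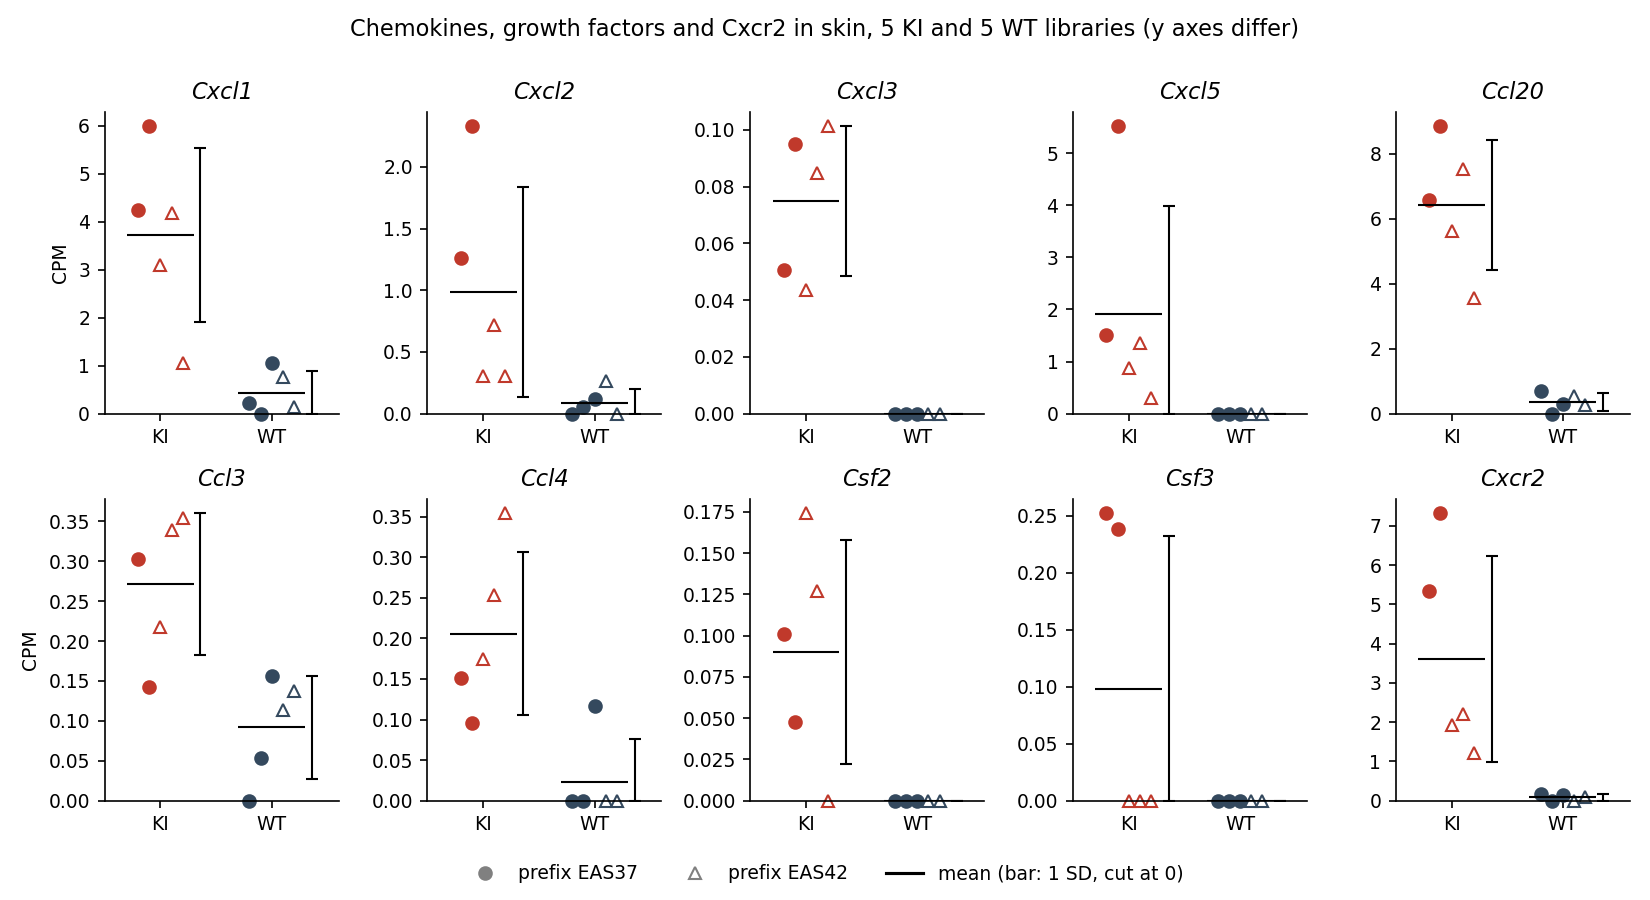
CPM of each of the 10 genes (vertical axes, which differ between panels) in 5 KI and 5 WT libraries. Points are libraries, filled circles carry prefix EAS37 and open triangles EAS42, horizontal lines are means and bars 1 SD cut at 0. Ccl20 lies between 3.55 and 8.85 CPM in KI and at or below 0.706 CPM in WT, and Cxcl3, Cxcl5, Csf2 and Csf3 lie at 0 in all WT libraries.

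The 4 ELR chemokines share a cluster of 146.6 kb on chromosome 5 of GRCm38, all on the plus strand: Cxcl5 (ENSMUSG00000029371) from 90759360 to 90761624, Cxcl3 (ENSMUSG00000029379) from 90786103 to 90789600, Cxcl1 (ENSMUSG00000029380) from 90891241 to 90893115 and Cxcl2 (ENSMUSG00000058427) from 90903871 to 90905938. These genes are similar copies. All 100 deposited expected counts of the 10 genes in the 10 libraries were exactly whole numbers, with no tolerance applied, which does not by itself show how reads shared between copies were assigned.

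Cxcl1, the most abundant of the 4, had 84, 126, 71, 99 and 21 counts in KI 1 to KI 5, against 5, 0, 27, 20 and 3 counts in WT 1 to WT 5. This came to 3.72 ± 1.81 CPM in KI and 0.433 ± 0.449 CPM in WT (SD, n = 5 each), and the lowest KI library, KI 5 at 1.06 CPM, lay just above the highest WT library, WT 3 at 1.05 CPM. On the log2 scale the difference was 3.03 ± 0.71 (SE, edgeR adjusted p = 0.0111). It was 2.57 with EAS42 alone (adjusted p = 0.0848) and 3.52 with EAS37 alone (adjusted p = 0.0588), neither past the threshold. The Cxcl1 call was also lost with muscle content as a covariate (2.16, edgeR adjusted p = 0.200).

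Cxcl5 was measured in KI skin alone. It had 30, 116, 20, 32 and 6 counts in KI 1 to KI 5 and 0 in each WT library. The 0 counts over all WT libraries allow up to 0.0260 CPM (3 counts over the group, counting error only). The KI level came to 73.3 times that limit, with no allowance for error in the KI count. KI 2 held 116 of the 204 KI counts. In the fit with no filter the edgeR adjusted p was 0.0180, and it was 0.0602 without KI 1. With prefix EAS42 alone that adjusted p was 1.62e-04 and with EAS37 alone 0.0102. These fits held 3 KI and 2 WT libraries (EAS42) and 2 KI and 3 WT libraries (EAS37), with 0 counts in WT. Both gave a smaller adjusted p than all 10 libraries, so these values do not measure how well the difference was repeated.

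Cxcl2 had 25, 49, 7, 17 and 6 counts in KI 1 to KI 5, against 0, 1, 3, 7 and 0 counts in WT 1 to WT 5. The groups barely separated, with 0.304 CPM in KI 5 and 0.265 CPM in WT 4. The ratio of summed counts scaled by depth, KI over WT, was 10.2 (exact binomial 95% interval 5.47 to 21.0, counting error only). In the fit with no filter Cxcl2 differed by 3.33 ± 0.82 on the log2 scale (SE, edgeR adjusted p = 0.0151). Within EAS42 it was 1.64 (edgeR adjusted p = 0.364) and within EAS37 4.82 (edgeR adjusted p = 1.39e-04), and 7 of the 11 WT counts were in WT 4, of EAS42. The KI effect on Cxcl2 was not shown to differ between the prefixes (EAS42 minus EAS37 -3.18 with no filter, edgeR adjusted p = 0.351). With muscle content as a covariate the Cxcl2 call was lost (1.46, edgeR adjusted p = 0.493), as it was without KI 2 and WT 2 together (2.62, edgeR adjusted p = 0.0627).

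Cxcl3 was barely present, with 1, 2, 1, 2 and 2 counts in KI 1 to KI 5 and 0 in every WT library. Its edgeR adjusted p with no filter was 0.0489, just under the threshold, and the call was lost whichever 1 of the 10 libraries was left out (edgeR adjusted p up to 0.0943), with the prefix as a block (0.0792) and with muscle content as a covariate (0.331). Scaled by depth, the 8 counts came to 2.87 times a limit of 3 counts over the WT group, with no allowance for error in the KI count.

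Upstream windows were searched for the kappa-B consensus because NF-kappa-B is the textbook regulator of the family. Those of Cxcl1, Cxcl2, Cxcl3 and Ccl20 are shown because they held a match. The part of NF-kappa-B in the difference between KI and WT was not tested. RefSeq windows of 250 bases before the gene start were at hand for 7 of the 10 genes (GRCm38.p6). Cxcl5, Ccl4 and Csf3 had no window, so nothing is said of their upstream letters. A match to the kappa-B consensus, searched on both strands, was found in 4 of these 7 windows (Cxcl1, Cxcl2, Cxcl3 and Ccl20), and in 7.25% of all 32851 windows. The capitals below mark the match, written 5′ to 3′ on the gene's strand, with 25 bases to either side.
Cxcl1, chr5:90891149-90891208, plus strand: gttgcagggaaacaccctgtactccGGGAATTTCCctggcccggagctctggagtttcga
Cxcl2, chr5:90903777-90903836, plus strand: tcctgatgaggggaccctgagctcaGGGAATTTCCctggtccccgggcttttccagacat
Cxcl3, chr5:90786003-90786062, plus strand: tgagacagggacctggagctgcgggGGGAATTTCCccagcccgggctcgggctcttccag
Ccl20, chr1:83116661-83116720, plus strand: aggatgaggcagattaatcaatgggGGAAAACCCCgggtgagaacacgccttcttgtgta

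The same 10 letters, GGGAATTTCC, stood in the 3 CXC windows, starting at position -71 of Cxcl1, -97 of Cxcl2 and -73 of Cxcl3, counted in bases from the RefSeq gene start. They were searched on their own, on both strands, after the consensus matches were seen, and occur in 28 of the 32851 windows (0.0852%). The match in each of these windows overlaps another match to the consensus on the opposite strand, shifted by 1 base. The Ccl20 match, to the opposite strand, starts at position -80. The RefSeq starts of Cxcl1, Cxcl2 and Cxcl3 differ from the gene starts given above, most for Cxcl2, so its -97 depends on the start used. The AP-1 motif TGANTCA, which reads the same on both strands, was in none of the 7 windows and in 6.75% of all windows. Cxcl1, Cxcl2 and Cxcl3 are copies of one another, so their matches are not independent, and a match is a description of letters and not of binding.

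**Figure D2:**
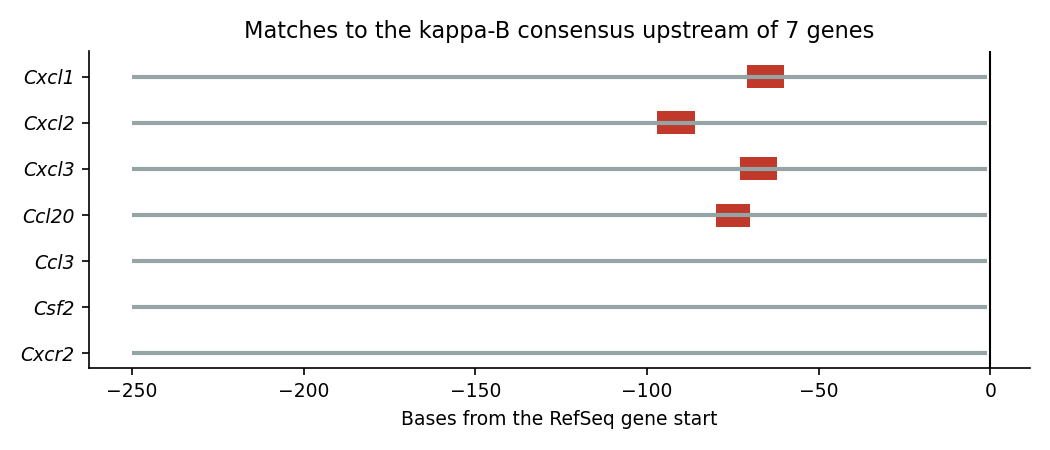
Matches to the kappa-B consensus (red boxes, either strand) in windows of 250 bases before the RefSeq gene start of 7 genes, with distance from the start in bases. The boxes of Cxcl1, Cxcl3 and Ccl20 begin at -71, -73 and -80 and that of Cxcl2 at -97, and the windows of Ccl3, Csf2 and Cxcr2 hold none.

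Ccl20 (ENSMUSG00000026166, chromosome 1, 83116766 to 83119167, plus strand) was the most abundant of the 10 genes. It had 130, 186, 129, 178 and 70 counts in KI 1 to KI 5, against 16, 0, 8, 14 and 6 counts in WT 1 to WT 5. Every KI library exceeded every WT library by a wide margin, at 6.42 ± 2.004 CPM in KI and 0.365 ± 0.268 CPM in WT (SD, n = 5 each). The difference was 4.09 ± 0.52 on the log2 scale (SE, edgeR adjusted p = 6.67e-04), with 3.74 in EAS42 (edgeR adjusted p = 0.00480) and 4.46 in EAS37 (edgeR adjusted p = 0.0152). With EAS37 alone and no filter on low counts the Ccl20 call was lost (4.45, edgeR adjusted p = 0.0522). The Ccl20 call held with muscle content as a covariate (3.54, edgeR adjusted p = 0.0140). Its receptor gene Ccr6 had 11 counts over the KI and 10 over the WT libraries, too few for the test.

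Ccl3 (ENSMUSG00000000982, minus strand, 83647844 to 83649355) and Ccl4 (ENSMUSG00000018930, plus strand, 83662584 to 83664683) lie 13.2 kb apart on chromosome 11. Both were near the limit of these libraries. Ccl3 had 6, 3, 5, 8 and 7 counts in KI 1 to KI 5, against 0, 1, 4, 3 and 3 counts in WT 1 to WT 5, and Ccl4 had 3, 2, 4, 6 and 7 counts, against 0, 0, 3, 0 and 0 counts. For both genes WT 3 stood above KI 2, so the groups overlapped. The ratio of summed counts scaled by depth, KI over WT, was 2.84 for Ccl3 (exact binomial 95% interval 1.38 to 6.30) and 7.90 for Ccl4 (2.37 to 41.2), and neither passed in the fit with no filter (edgeR adjusted p = 0.196 for Ccl3 and 0.0842 for Ccl4). Without WT 3, which held all 3 WT counts of Ccl4, Ccl4 passed (edgeR adjusted p = 0.0239). The Ccl3 receptor gene Ccr1 was higher in KI, at 4.85 ± 2.70 CPM in KI and 1.13 ± 0.488 CPM in WT (SD, n = 5 each), a difference of 2.10 ± 0.43 on the log2 scale (SE, edgeR adjusted p = 0.00571).

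The growth factor genes Csf2 (ENSMUSG00000018916, chromosome 11, minus strand, 54247271 to 54249667) and Csf3 (ENSMUSG00000038067, chromosome 11, plus strand, 98701263 to 98703629) had 10 counts each, all in KI libraries. Csf2 had 2, 1, 4, 3 and 0 counts in KI 1 to KI 5, and Csf3 had 5 counts in each of KI 1 and KI 2 and 0 in KI 3 to KI 5. The Csf3 counts thus came from the 2 EAS37 libraries, while those of Csf2 came from both prefixes. Set against a limit of 3 counts over the WT group and scaled by depth, each came to 3.59 times that limit. This makes no allowance for error in the KI count. Neither passed in the fit with no filter (edgeR adjusted p = 0.0616 for Csf2 and 0.120 for Csf3), and Csf2 passed without KI 5 (edgeR adjusted p = 0.0395). Csf2 overlaps the antisense gene Gm12223, and no source used here gives the strand setting of the counting, so its reads may in part be those of that gene.

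Cxcr2, the receptor (ENSMUSG00000026180, chromosome 1, 74153989 to 74161246, plus strand), showed the largest fitted fold change of the 3 genes in the main test. It had 106, 154, 44, 52 and 24 counts in KI 1 to KI 5, against 4, 0, 4, 0 and 2 counts in WT 1 to WT 5. The levels were 3.60 ± 2.62 CPM in KI and 0.0848 ± 0.0835 CPM in WT (SD, n = 5 each), with no overlap. Cxcr2 differed by 5.29 ± 0.76 on the log2 scale (SE, edgeR adjusted p = 0.00125), 5.22 in EAS42 (edgeR adjusted p = 0.00999) and 5.71 in EAS37 (edgeR adjusted p = 0.00220). With 10 WT counts the ratio of summed counts scaled by depth, KI over WT, was 41.0 (exact binomial 95% interval 22.0 to 86.1, counting error only). The Cxcr2 call held with muscle content as a covariate (3.95, edgeR adjusted p = 0.0191). The gene of the sister receptor, Cxcr1, had 0 counts in all 10 libraries.

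Exact two-sided permutation tests of log2(CPM + 0.5), which need no filter, gave p = 0.00794 for Cxcl1, Cxcl2, Cxcl3, Cxcl5, Ccl20, Cxcr2 and Hamp, the smallest that 5 against 5 libraries can give. The same exact tests gave p = 0.0159 for Ccl3 and Ccl4, p = 0.0476 for Csf2 and p = 0.444 for Csf3. These 11 p-values are unadjusted, and the genes were chosen with earlier results of these data known. The plot of ratios sets the size of each difference beside its counting error for the 6 genes with WT counts.

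**Figure D3:**
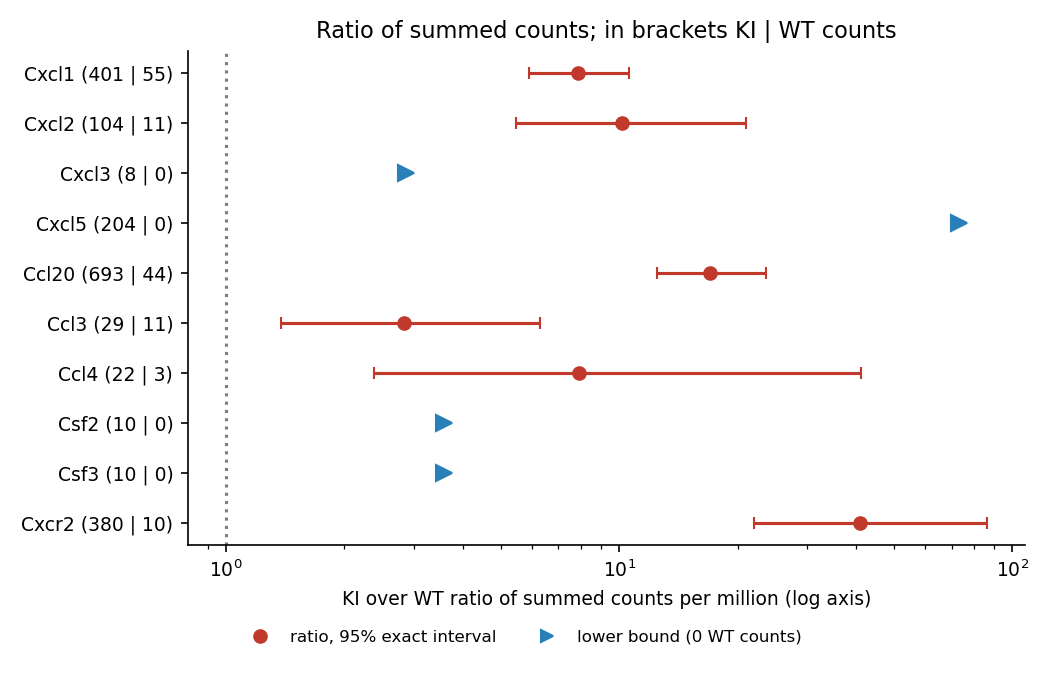
Ratio of summed counts scaled by depth, KI over WT, of the 10 genes on a log axis, with summed counts in KI and WT libraries in brackets. Circles carry exact binomial 95% intervals for counting error. Triangles stand for the 4 genes without WT counts. They give the KI level over a limit of 3 WT counts, with no allowance for error in the KI count. Ratios run from 2.84 for Ccl3 to 41.0 for Cxcr2, and the triangle of Cxcl5 is at 73.3.

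Per transcript length, in the TPM (transcripts per 1 M) deposited by the authors, Ccl20 led in KI skin at 11.7 ± 3.58 TPM, followed by Cxcl1 at 4.96 ± 2.499 TPM. Cxcl5 (1.73 ± 1.86 TPM), Cxcr2 (1.58 ± 1.10 TPM) and Cxcl2 (1.06 ± 0.894 TPM) came next (SD, n = 5 each). Ccl20 exceeded Cxcl1, and Cxcl1 exceeded Cxcl5, in 5 of 5 KI libraries, whereas Cxcl5 exceeded Cxcr2 in 2 of 5, so the order of that pair is within the spread. Cxcr2 exceeded Cxcl2 in 5 of 5. The remaining levels were 0.582 ± 0.206 TPM for Ccl3, 0.544 ± 0.291 TPM for Ccl4, 0.184 ± 0.144 TPM for Csf2, 0.10 ± 0.0367 TPM for Cxcl3 and 0.0940 ± 0.129 TPM for Csf3 (SD, n = 5 each), of which the last 3 do not differ beyond their spread. In WT skin, Ccl20 (0.760 ± 0.561 TPM) and Cxcl1 (0.584 ± 0.687 TPM) had the highest levels, with SDs larger than the gap between them.

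The KI mice differed among themselves. KI 2 was the highest KI library for 5 of the 10 genes (Cxcl1, Cxcl2, Cxcl5, Ccl20 and Cxcr2), and KI 5 was the lowest for the same 5, by a trace for Cxcl2 (0.304 CPM, next to 0.305 CPM in KI 3). The highest over the lowest KI library came to 18.2 times for Cxcl5, 7.67 times for Cxcl2, 6.03 times for Cxcr2, 5.63 times for Cxcl1 and 2.495 times for Ccl20. Summed over the 4 ELR chemokines, KI 1 to KI 5 held 140, 293, 99, 150 and 35 counts, against 5, 1, 30, 27 and 3 counts in WT 1 to WT 5. Cxcl5 made up 39.6% of the ELR counts in KI 2 and between 17.1% and 21.4% in the other KI libraries. Ccl3 and Ccl4 ran the other way at their low counts, lowest in KI 2 and highest in KI 5.

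Other measures shared the KI 2 extreme of this spread, but not its order. Hamp itself was highest in KI 2 (169 CPM) and lowest in KI 5 (85.6 CPM). KI 1, KI 3 and KI 4 lay close to KI 5, at 90.0, 104 and 95.3 CPM. The skeletal muscle level (mean log2 CPM of 20 markers) was 8.77, 6.98, 10.38, 8.76 and 9.70 in KI 1 to KI 5, against 10.26, 10.82, 10.26, 10.66 and 10.99 in WT 1 to WT 5. KI 2 thus had the least, and KI 3, not KI 5, the most of the KI libraries. KI 3, whose muscle level lay within the WT range, had 5.62 CPM of Ccl20, 3.10 CPM of Cxcl1, 1.92 CPM of Cxcr2 and 0.872 CPM of Cxcl5, each above every WT library. Every KI library but KI 3 had a lower muscle level than every WT library, so the covariate fits can hardly separate muscle content from genotype. Beyond those fits, given for some of the 10 genes, the part of tissue make-up in the difference between KI and WT, or in the spread among KI libraries, was not tested.

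**Figure D4:**
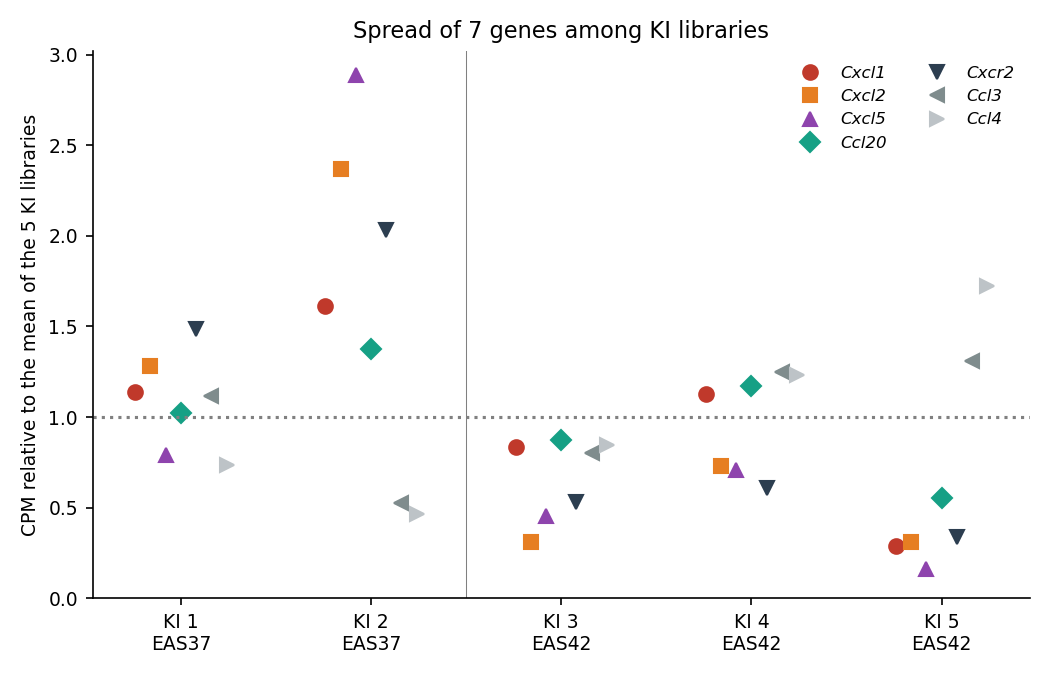
CPM of 7 genes in each KI library relative to that gene's mean over the 5 KI libraries (vertical axis, no unit), with the title prefix under each library. In KI 2 the points of Cxcl1, Cxcl2, Cxcl5, Ccl20 and Cxcr2 lie highest, in KI 5 they lie lowest, and Ccl3 and Ccl4 show the opposite order.

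By prefix, the 2 EAS37 libraries of KI averaged 4.17 times the CPM of the 3 EAS42 libraries of KI for Cxcl5, 4.06 times for Cxcl2, 3.56 times for Cxcr2, 1.84 times for Cxcl1 and 1.38 times for Ccl20. The Cxcl5 value rests on single libraries, with 1.51 CPM in KI 1 and 5.52 CPM in KI 2, against a mean of 0.843 CPM in the 3 EAS42 libraries. For all of these but Ccl20 both EAS37 libraries of KI stood above all 3 EAS42 libraries of KI, for Cxcl1 by a trace (4.24 CPM in KI 1, 4.19 CPM in KI 4). The share of all genes with that order was not computed, so it is no result about these genes. The KI effect itself was not shown to differ between the prefixes. The differences (EAS42 minus EAS37) were -0.91 ± 1.47 for Cxcl1, -0.69 ± 1.04 for Ccl20 and -0.46 ± 1.93 for Cxcr2 on the log2 scale (SE, edgeR adjusted p = 0.791, 0.775 and 0.927), against 150 of 17321 genes called (0.866%). The SE of about 1 to 2 leaves wide room for a difference in either direction.

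Genes whose level varied most like that of a gene in the group were looked for among 15672 others with a mean of at least 1 CPM, by Pearson correlation over the 10 libraries after centring log2 CPM within each genotype. The closest were Dcp2 (r = 0.987), Ing2 (r = 0.981) and Arf6 (r = 0.968) for Cxcl1, Agfg1 (r = 0.959), Ankfy1 (r = 0.951) and Gm14421 (r = 0.933) for Ccl20, and Snrpa1 (r = 0.962), Rpl7l1 (r = 0.954) and Mob1b (r = 0.949) for Cxcr2. None of these 9 genes was itself among the chemokines or cytokines considered. The values are a description of the closest matches out of many, over libraries that share depth and tissue make-up.

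Among the signals known to induce these chemokines, the interleukin 1 genes Il1a and Il1b and the 3 measured interleukin 36 genes (Il1f6, Il1f8 and Il1f9) were higher in KI, while Il1r1 and Il1rn did not pass (edgeR adjusted p = 0.789 and 0.513) and the interleukin 17 cytokine genes were hardly measured. Of 19 tested genes of inducing cytokines and their receptors (25 matched), 12 were higher and none lower, against 15.6% higher among all tested genes. Their median log2 change was 0.67, against -0.01 over all genes tested. The clearest were Il1f8 and Il1f6, which encode the interleukin 36 cytokines beta and alpha, at log2 fold changes of 3.34 ± 0.33 and 3.76 ± 0.57, the interleukin 23 subunit Il23a at 2.802 ± 0.37 and the oncostatin M receptor Osmr at 0.79 ± 0.09 (SE, edgeR adjusted p between 2.42e-04 and 0.00176). Il1b, a potent inducer of Cxcl1 and Cxcl2, was at 1.84 ± 0.579 CPM in KI and 0.359 ± 0.274 CPM in WT, and Tnf at 2.66 ± 0.657 CPM in KI and 0.929 ± 0.509 CPM in WT (SD, n = 5 each; edgeR adjusted p = 0.00435 and 0.0209). Il17a and Il22 had 0 counts in all libraries, Il17f had 3 counts in KI and 7 in WT and Il17c 4 in KI and 8 in WT. The receptor genes Il17ra (42.8 ± 4.17 CPM in KI, 36.2 ± 3.16 CPM in WT) and Il17rc (91.1 ± 7.46 CPM in KI, 75.9 ± 17.6 CPM in WT; SD, n = 5 each) did not pass (edgeR adjusted p = 0.0565 and 0.197). Once muscle content was a covariate, Il1f8, Il23a, Osmr and Il1f6 passed and the other 8 calls were lost, Il1b and Tnf among them (edgeR adjusted p = 0.124 and 0.229), in a fit that called 295 of 17321 genes higher. With EAS42 alone 5 genes of this list passed, in a fit that called 1192 of 17845 genes higher.

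Genes of NF-kappa-B, its feedback inhibitors and chemokine mRNA decay changed in 10 of 19 members, 9 higher and 1 lower, against 15.6% higher among all tested genes. Their median log2 change was 0.25. The NF-kappa-B cofactors Nfkbiz and Bcl3 had log2 fold changes of 0.94 ± 0.08 and 2.32 ± 0.26 (SE). Cebpb, a transcription factor of inflammatory genes, was at 160 ± 27.6 CPM in KI and 70.5 ± 8.91 CPM in WT, and Zc3h12a, the RNase that degrades chemokine and cytokine mRNAs, at 37.7 ± 4.29 CPM in KI and 19.8 ± 2.36 CPM in WT (SD, n = 5 each). With EAS42 alone 4 genes of the list passed as higher, in a fit that called 1192 of 17845 genes higher. With EAS37 alone 5 passed as higher, in a fit that called 2674 of 17827 genes higher. The 4 genes just named had an edgeR adjusted p of 4.12e-04 or less over both prefixes and passed with muscle content as a covariate too, while the other 6 calls of the list, that of Nfkbia included (edgeR adjusted p = 0.305), were then lost. Nfkbia, the inhibitor that NF-kappa-B itself induces, was lower, at 85.3 ± 10.2 CPM in KI and 123 ± 23.1 CPM in WT (SD, n = 5 each; log2 fold change -0.52 ± 0.13 SE, edgeR adjusted p = 0.0133). The feedback inhibitor Tnfaip3 and the mRNA decay factor Zfp36 did not pass (25.5 ± 3.39 and 83.8 ± 11.7 CPM in KI, 26.8 ± 4.41 and 78.9 ± 5.36 CPM in WT; edgeR adjusted p = 0.704 and 0.517).

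**Figure D5:**
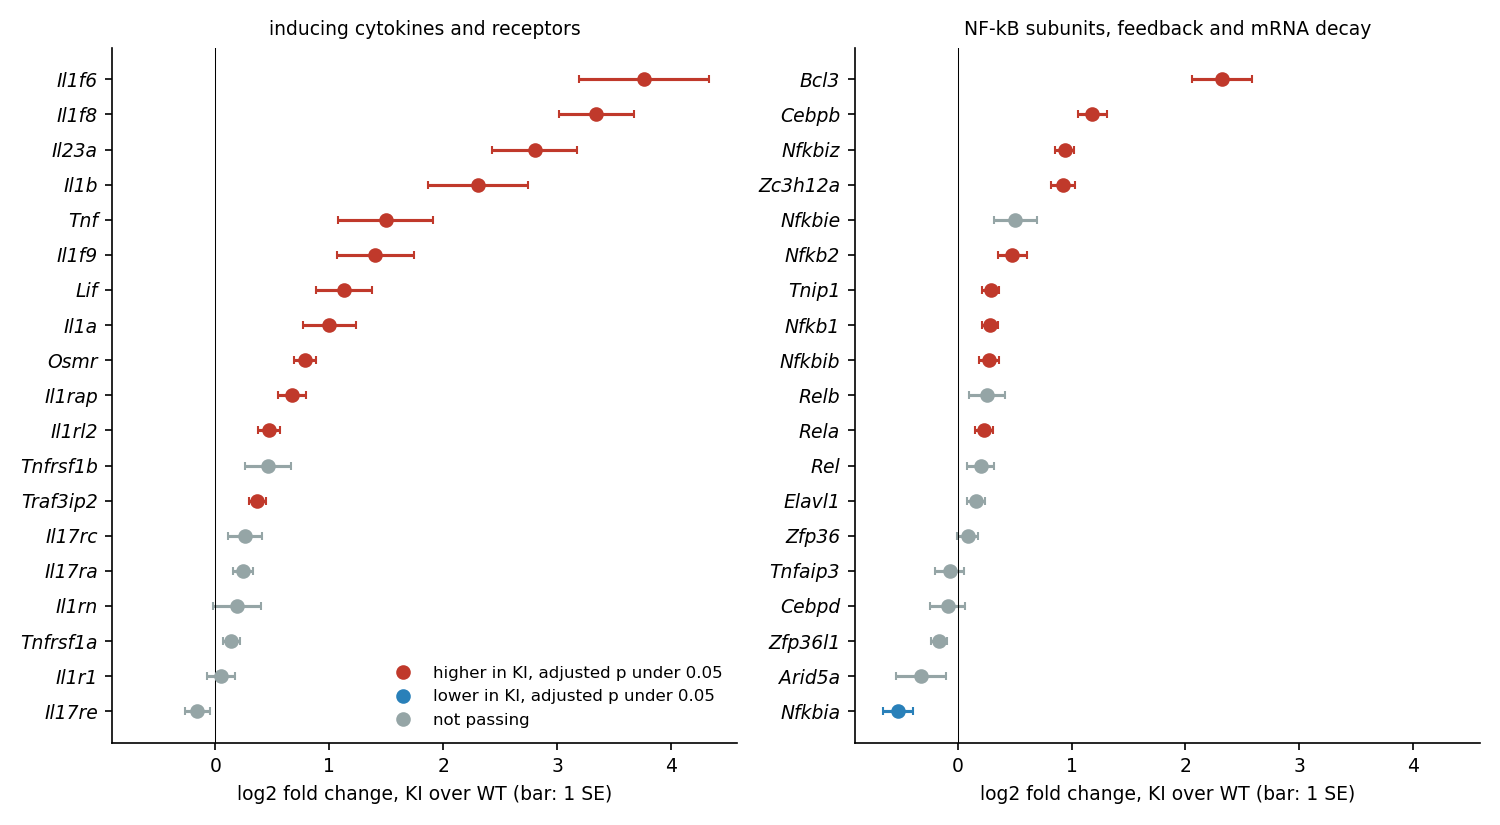
Log2 fold change, KI over WT, of the tested inducing cytokines and receptors (left) and of NF-kappa-B genes, feedback inhibitors and mRNA decay factors (right), with bars of 1 SE from the edgeR fit. Red points passed as higher (12 on the left, 9 on the right), the blue point, Nfkbia at -0.52, passed as lower, and grey points did not pass.

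Among all tested genes 15.6% were higher and 15.3% lower, which is the background for the chemokine and receptor lists that follow. Of 8 tested CXC, C and CX3C chemokine genes outside the group, 2 were higher: Cxcl16, a ligand of Cxcr6 (92.5 ± 12.2 CPM in KI, 34.7 ± 6.11 CPM in WT), and Cx3cl1 (13.99 ± 0.726 CPM in KI, 10.02 ± 2.26 CPM in WT; SD, n = 5 each; edgeR adjusted p = 1.87e-04 and 0.0327). The count was 1 without KI 1, KI 2, WT 1, WT 2 or WT 3, with EAS42 alone and with muscle content as a covariate (Cx3cl1 then had an edgeR adjusted p of 0.293). The interferon-induced Cxcl9 and the skin chemokine Cxcl14 did not pass (2.59 ± 0.919 and 154 ± 44.03 CPM in KI, 1.605 ± 0.533 and 221 ± 76.1 CPM in WT; edgeR adjusted p = 0.104 and 0.161). Of 15 tested CC chemokine genes, 5 were higher and 2 lower, the lower ones near the 15.3% of all tested genes, with 3 higher when KI 3, KI 4, WT 1, WT 2, WT 4 or WT 5 was left out and 0 lower without KI 1, KI 2, WT 1, WT 3 or WT 4. The Ccr8 ligands Ccl1 and Ccl8 were at 1.15 ± 0.294 and 27.0 ± 8.77 CPM in KI and at 0.151 ± 0.0595 and 9.85 ± 6.06 CPM in WT, the Ccr4 ligand Ccl22 at 7.24 ± 1.996 CPM in KI and 3.01 ± 1.22 CPM in WT, and the eosinophil chemokine Ccl11 was lower, at 4.42 ± 1.24 CPM in KI and 7.42 ± 1.74 CPM in WT (SD, n = 5 each; edgeR adjusted p between 4.29e-04 and 0.0310). With muscle content as a covariate, Ccl1 was the single CC chemokine of this list that passed.

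Of 16 tested chemokine receptor genes, 5 were higher and 4 lower, against 15.6% and 15.3% of all tested genes (2 lower without KI 1, KI 2, KI 4, WT 1 or WT 3). Ccr2, the receptor of monocytes, was at 24.3 ± 7.23 CPM in KI and 7.34 ± 3.36 CPM in WT, Cx3cr1 at 5.15 ± 1.34 CPM in KI and 1.45 ± 0.691 CPM in WT, and the scavenger receptor Ackr3 was lower, at 22.2 ± 2.19 CPM in KI and 39.5 ± 9.38 CPM in WT (SD, n = 5 each; edgeR adjusted p between 0.00273 and 0.00452). Of 7 tested colony stimulating factors and receptors, 1 was higher (2 without KI 1), near the 15.6% of all tested genes. It was the G-CSF receptor Csf3r that neutrophils carry, at 3.20 ± 1.43 CPM in KI and 0.597 ± 0.378 CPM in WT (SD, n = 5 each; log2 fold change 2.38 ± 0.50 SE, edgeR adjusted p = 0.00650). The Csf2 receptor gene Csf2ra (13.4 ± 1.84 CPM in KI, 9.89 ± 2.14 CPM in WT), the macrophage factor Il34 (28.4 ± 3.53 CPM in KI, 38.5 ± 17.2 CPM in WT) and its receptor gene Csf1r (60.2 ± 9.07 CPM in KI, 50.7 ± 11.5 CPM in WT) did not pass (SD, n = 5 each; edgeR adjusted p = 0.0644, 0.244 and 0.247). With muscle content as a covariate 0 genes of either list passed, in a fit that called 295 of 17321 genes higher and 143 lower.

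Markers of the cells these signals call were uneven. Of 25 neutrophil markers 9 were tested, of which 5 were higher, against 15.6% of all tested genes, and 1, Il1r2, lower. The Il1r2 call was lost without KI 1, KI 2, KI 3, KI 4, WT 1, WT 4 or WT 5, and with muscle content as a covariate the list had 4 higher and 0 lower. The summed level of the neutrophil markers lay between 154 and 284 CPM in KI and between 65.0 and 71.4 CPM in WT. The clearest were Mmp9, S100a8, Lcn2 and S100a9, with log2 fold changes of 3.23 ± 0.24, 4.46 ± 0.51, 4.63 ± 0.62 and 4.71 ± 0.65 (SE, edgeR adjusted p between 5.51e-05 and 0.00123), which activated keratinocytes also express. Several genes of neutrophil granules and surface were at or near 0: Ly6g had 0 counts in all libraries, Mpo had 1 in KI and 0 in WT, Elane 3 in KI and 3 in WT, and Camp 7 in KI and 21 in WT. Others below the filter had more counts in KI, with 142 in KI and 16 in WT for Clec4d, 48 in KI and 12 in WT for Fpr2, 32 in KI and 5 in WT for Fpr1 and 30 in KI and 3 in WT for Mmp8. The part of neutrophils in the Cxcr2 difference was not tested.

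Of 10 tested T cell markers 7 were higher, against 15.6% of all tested genes. With muscle content as a covariate 2 were higher, in a fit that called 295 of 17321 genes higher. Of 12 macrophage and monocyte markers 2 were higher and 1 lower, near the 15.6% higher and 15.3% lower of all tested genes. That macrophage count was 1 higher without KI 1, KI 2, KI 4, WT 4 or WT 5, and 1 higher and 0 lower with muscle content as a covariate. Of 7 tested mast cell markers none passed (edgeR adjusted p). Summed levels of T cell markers lay between 92.9 and 126 CPM in KI and between 70.1 and 96.5 CPM in WT. Those of macrophage and monocyte markers lay between 327 and 518 CPM in KI and between 245 and 430 CPM in WT, and those of mast cell markers between 61.0 and 160 CPM in KI and between 59.4 and 111 CPM in WT, so all of these ranges overlapped. Cd8a had 52 counts in KI and 0 in WT. The cell source of each chemokine cannot be read from whole skin.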

How the data were processed

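RNA from mouse skin was extracted with trizol and made into libraries with a stranded Illumina mRNA kit, per the labels' protocols. The submitters' processing notes name STAR 2.5.2b, featureCounts, DESeq2 1.14.1 and GRCm38, with no role or order. The deposited tables have RSEM's columns; the authors made the expected counts, the TPM and the effective lengths in them, per the file headers, and no source used here gives RSEM's version, its annotation or its use of strand.

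Expected counts, of which 10.4% to 12.2% per library were fractional, were rounded for the tests. GENCODE M21 named 55141 of 55487 identifiers; the other 346 held 0.0507% of counts. Genotype came from the titles, and replicate numbers only name libraries. No 2 libraries agreed within sampling noise (lowest chi-square per gene 29.7).

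KI was compared with WT by edgeR 4.0.16 (R 4.3.3, quasi-likelihood test, robust, TMM, filterByExpr with a minimum count of 10 and a minimum total of 15, Benjamini-Hochberg over 17321 genes, threshold 0.05). The difference between prefixes came from an interaction. Of the 10 genes, 7 fell below the filter and are given by counts, an exact permutation test and a fit with no filter (31097 genes). CPM uses TMM library sizes, and muscle content is the mean log2 CPM of 20 marker genes. Alternatives were other normalizations, filters, length offsets, DESeq2 1.42.0, limma-voom 3.58.1, prefix, muscle level and left-out libraries. The genes and lists were chosen with earlier results of these data known; those named from a list are its up to 4 genes with the smallest p, and others, such as receptors of the 10 genes, Il1b, Tnf, Nfkbia and markers below the filter, were named after their values were seen. The test was tested on simulated data.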

Additional observations from a re-analysis of the deposited data

Results flagged for a closer look

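Cxcl5 in KI 2, at 5.52 CPM, stood far from the other KI libraries, of which the next was at 1.51 CPM and the lowest at 0.304 CPM (Dixon's ratio 0.768, against a critical value of 0.710 for 5 samples). Without KI 2 the Cxcl5 call in the fit with no filter held. Ccl4 in WT 3, at 0.117 CPM, was the single WT library with any Ccl4, from 3 counts, so its ratio of 1 is set by a count of 3 against 0. Chance flags about 1 in 20 groups, and 16 groups were looked at.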

How the results depend on the processing

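Genes called between KI and WT numbered 5351, against 2488 with EAS42 alone and 438 with muscle content as a covariate, and stayed within 1.5 times of that in all other alternatives run. Genes called for the difference between prefixes numbered 150, against 444 with no filter, 1086 with DESeq2, 72 with limma-voom and between 1 and 304 with 1 library left out. Of the 10 genes, 6 were called with no filter, against 3 with muscle content as a covariate (Cxcl5, Ccl20 and Cxcr2) and between 3 and 6 with 1 library left out. The cause was not tested. With the filter on low counts, Ccl20 and Cxcr2 passed in all alternatives that gave a value, with log2 fold changes from 3.54 to 4.53 and from 3.95 to 5.71. With EAS37 alone and no filter Ccl20 did not pass (adjusted p = 0.0522). Cxcl1 did not pass with either prefix alone or with muscle content, and in the fit with no filter it also lost its call without KI 1, KI 2, KI 4, WT 1 or WT 5 (adjusted p up to 0.0698). No fitted difference of the 10 genes changed sign. With the minimum count of 50 no value could be had for Cxcl1 and Cxcr2. Settings for the fit with no filter were chosen after seeing the data, as were KI 2 and WT 2 left out together. No paired analysis was possible because the labels tie no KI mouse to a WT mouse. Depth limits Cxcl3, Ccl3, Ccl4, Csf2 and Csf3, with at most 8 counts per library.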
